A study of Mus musculus with 28 samples.

Results

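Transcript levels of 10 neutrophil granule genes were followed on 28 arrays of mouse splenic dendritic cells. Ngp, Ltf, Camp and Lcn2 stood for the specific (secondary) granule, Elane, Mpo and Prtn3 for the azurophil (primary) granule and Mmp9 for the gelatinase granule, together with the cytosolic S100 proteins S100a8 and S100a9. They were 10 of 19938 genes that had a probe set with exactly 1 symbol, and each of the 10 had 1 such probe set. Values were log2 expression levels from robust multi-array averaging (RMA), a procedure that corrects background, normalizes arrays to each other and summarises the probes of a probe set. Dendritic cells are antigen-presenting cells, and the study asked how oxidative stress affects their expression profile.

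Mice were 3 months old and each array was 1 biological replicate. NOX2 knockout mice (KO, named GP91 Phox knockout in the labels), which lack Cybb, the gene of the membrane-bound catalytic subunit of NADPH oxidase in phagocytes, gave 4 arrays of cells treated with angiotensin II (Ang II) and 3 of vehicle-treated cells. The titles of those 4 arrays read Ang I whereas their descriptions read Ang II, and the descriptions were followed, so each KO Ang II value below rests on that reading. C57BL6/J wild-type mice gave 6 arrays with Ang II plus hydralazine and hydrochlorothiazide (Hyd/HCTZ), 4 with Ang II plus 2-hydroxybenzylamine (2-HOBA), 4 with Ang II alone and 7 with vehicle. 2-HOBA is a scavenger of dicarbonyl products of lipid peroxidation. Ang II constricts vessels and is used to induce hypertension in mice, whereas hydralazine relaxes vessels and hydrochlorothiazide makes the kidney excrete salt and water. Titles of the vehicle arrays read Sham, whereas their descriptions read vehicle-treated. Whether mice or isolated cells received the agents, and how the dendritic cells were enriched, was not given in the sources used here.

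Neutrophils load their granules in waves as they mature in the bone marrow. Azurophil granules, which hold serine proteases and myeloperoxidase, are made first by promyelocytes, specific granules with antimicrobial and iron-binding proteins follow in myelocytes and metamyelocytes, and gelatinase granules come last. The transcription factor PU.1 acts on azurophil granule genes and C/EBPε on specific granule genes, while S100a8 and S100a9, whose products form the calcium-binding heterodimer calprotectin, are transcribed in neutrophils and monocytes alike.

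The 10 genes lay on 5 chromosomes. Camp, Ngp and Ltf shared chromosome 9, with 8 protein-coding genes between Camp and Ngp and 20 between Ngp and Ltf. Prtn3 and Elane were neighbours on chromosome 10, and S100a8 and S100a9 on chromosome 3, with 0 protein-coding genes between the members of each pair. Lcn2 and Mmp9 lay 1291 protein-coding genes apart on chromosome 2, and Mpo lay on chromosome 11. The 250 bases upstream of the transcription start are shown for 5 genes, 4 of them because they moved together across arrays and Elane as a gene of the azurophil granule, whose own levels never passed a log2 level of 5, used here as the detection threshold. Sequences and coordinates are those of RefSeq on GRCm38.p6, given 5′ to 3′ on the gene's strand, and capitals mark matches on either strand to a C/EBP-type motif (TTNNGNAA) or a PU.1-type ETS motif (GAGGAAGT).
Ngp (chr9:110419558-110419807, plus strand): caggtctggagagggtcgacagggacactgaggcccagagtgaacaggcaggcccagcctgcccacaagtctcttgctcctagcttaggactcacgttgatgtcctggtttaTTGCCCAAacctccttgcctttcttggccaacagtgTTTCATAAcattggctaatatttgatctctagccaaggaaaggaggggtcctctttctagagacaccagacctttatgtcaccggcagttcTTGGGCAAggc
Ltf (chr9:111019042-111019291, plus strand): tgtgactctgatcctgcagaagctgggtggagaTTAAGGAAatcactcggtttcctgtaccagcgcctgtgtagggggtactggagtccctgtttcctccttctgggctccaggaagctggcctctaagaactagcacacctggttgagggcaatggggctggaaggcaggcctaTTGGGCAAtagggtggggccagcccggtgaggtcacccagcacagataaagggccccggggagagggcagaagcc
Camp (chr9:109849457-109849706, minus strand): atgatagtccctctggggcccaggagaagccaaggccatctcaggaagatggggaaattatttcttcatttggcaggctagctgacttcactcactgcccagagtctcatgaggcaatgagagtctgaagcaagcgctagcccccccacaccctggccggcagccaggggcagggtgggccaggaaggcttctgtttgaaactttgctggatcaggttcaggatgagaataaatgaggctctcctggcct
S100a8 (chr3:90668821-90669070, plus strand): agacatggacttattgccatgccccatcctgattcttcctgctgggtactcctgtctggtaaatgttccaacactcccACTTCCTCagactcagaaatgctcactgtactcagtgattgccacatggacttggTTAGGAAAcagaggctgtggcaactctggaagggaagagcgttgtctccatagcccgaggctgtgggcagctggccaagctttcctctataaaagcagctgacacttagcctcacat
Elane (chr10:79886062-79886311, plus strand): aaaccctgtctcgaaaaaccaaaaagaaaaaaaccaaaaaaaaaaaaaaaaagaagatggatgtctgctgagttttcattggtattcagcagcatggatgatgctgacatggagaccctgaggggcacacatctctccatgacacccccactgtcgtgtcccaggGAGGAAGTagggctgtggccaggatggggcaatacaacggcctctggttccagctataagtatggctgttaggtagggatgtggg

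Of the 9 members in the promoter table (Mmp9 was not among them), 5 held the C/EBP-type motif, namely Ngp, Ltf, Lcn2, S100a8 and S100a9, and the motif occurred in 36.8% of the 32851 promoters of the same length. The 4 members S100a8, Elane, Mpo and Prtn3 held the PU.1-type motif, which occurred in 2.44% of those promoters. Ngp had 3 C/EBP-type matches, the nearest running from base -11 to base -4. The 3 azurophil genes each held 1 PU.1-type match, from base -85 in Elane, -95 in Prtn3 and -224 in Mpo. A match is a run of letters and was not tested as a binding site, and the motifs were chosen with these sequences in view.

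**Figure D1:**
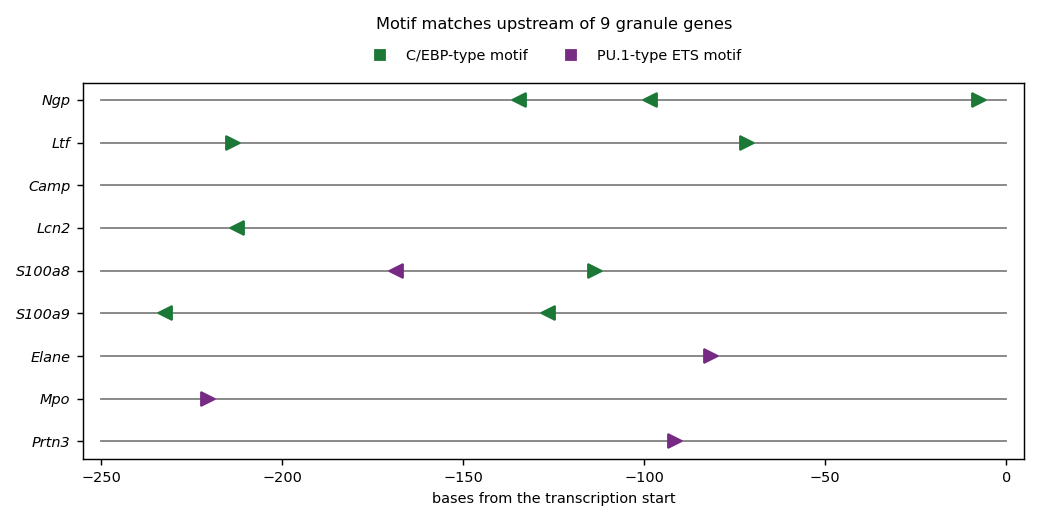
Positions of motif matches in the 250 bases upstream of 9 granule genes, in bases from the transcription start. Triangles point right for a match on the gene's strand and left for the other strand, in green for the C/EBP-type and purple for the PU.1-type motif. All 3 azurophil genes and S100a8 carry a purple mark, and Camp carries none of either colour.

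All 14 listed dendritic cell genes, among them H2-Aa, Cd74 and Itgax, passed the filter of a level above 5 on at least 3 arrays. Some were dim on part of the arrays, as Clec10a averaged 4.24 and the lowest values of Irf4 and Xcr1 were 4.00 and 4.20. The mean log2 level of the 14 genes ranged between 8.94 and 9.11 on Hyd/HCTZ arrays, against 7.29 and 8.27 on all others. Cybb, the knocked-out gene, lay between 6.41 and 7.18 on KO arrays and between 8.35 and 9.75 on wild-type arrays, except on the array labelled wild-type vehicle replicate 2, where it was 6.34 and went against the label. That array also stood apart in its values as a whole, with a mean correlation of 0.852 with the other arrays (at least 0.927 for every other array), an interquartile range of 1.92 (at least 2.43 elsewhere) and the highest median, 4.55. Ly6g, a defining neutrophil marker, never passed 5, with a highest value of 4.97. Probe sets taken as controls split the arrays into 3 sets that no label names: set 3 was the 6 Hyd/HCTZ arrays and no others, and set 1 took in every KO array together with the first 3 wild-type vehicle and the first 2 wild-type Ang II replicates. All 2-HOBA arrays fell in set 2 with what remained of the vehicle and Ang II groups.

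The specific granule genes were highest with KO Ang II and lowest with Hyd/HCTZ, and they varied widely within groups. Ngp, which encodes a cystatin-like granule protein, stood at 6.997, 8.89, 7.23 and 9.84 on the KO Ang II arrays, against 9.50, 7.004 and 6.00 on the KO vehicle arrays. In wild-type cells it ran between 3.64 and 6.59 (median 4.02) with Hyd/HCTZ and measured 5.71, 5.60, 4.63 and 5.96 with 2-HOBA, against 6.94, 6.47, 8.38 and 6.00 with Ang II alone. It spanned 4.25 to 7.75 (median 6.22) on the wild-type vehicle arrays. The group means of Ngp fell in the order KO Ang II (8.24 ± 1.36, SD), KO vehicle (7.50 ± 1.80), wild-type Ang II (6.95 ± 1.03), wild-type vehicle (6.00 ± 1.25), 2-HOBA (5.48 ± 0.58) and Hyd/HCTZ (4.40 ± 1.11), and each group overlapped its neighbour in that order.

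Ltf encodes lactoferrin, the iron-binding protein of the specific granule. It measured 5.43, 6.61, 5.75 and 8.17 with KO Ang II, against 7.98, 5.12 and 4.86 with KO vehicle. Wild-type values ran from 3.32 to 4.55 (median 3.63) with Hyd/HCTZ and were 4.11, 3.70, 3.58 and 4.41 with 2-HOBA, against 5.04, 4.96, 5.71 and 4.47 with Ang II alone. Vehicle arrays ranged from 3.76 to 5.42 (median 5.02). Ltf passed 5 on 12 of 28 arrays and on none of the 10 co-treated ones.

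Camp encodes cathelicidin, the precursor of an antimicrobial peptide. Its levels were 6.88, 7.76, 7.15 and 10.14 with KO Ang II, against 9.06, 6.48 and 6.09 with KO vehicle. They ran from 4.60 to 7.21 (median 5.26) with Hyd/HCTZ and stood at 6.28, 6.11, 5.84 and 7.05 with 2-HOBA, against 7.09, 6.11, 9.12 and 6.86 with Ang II alone, while vehicle arrays held 5.01 to 7.72 (median 6.27). All groups overlapped in Camp, and 1 array apiece set the top of the KO Ang II, KO vehicle, Hyd/HCTZ and wild-type Ang II groups.

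Lcn2 encodes lipocalin 2, which binds bacterial siderophores. KO Ang II arrays gave 5.61, 8.18, 5.94 and 9.72 for it, against 9.14, 5.61 and 5.19 on KO vehicle arrays. Wild-type arrays gave 4.24 to 6.47 (median 4.77) with Hyd/HCTZ and 5.32, 5.18, 4.60 and 5.44 with 2-HOBA, against 5.84, 5.79, 7.87 and 5.77 with Ang II alone and 4.25 to 7.16 (median 6.01) with vehicle. Within KO vehicle the highest array stood 3.95 above the lowest on the log2 scale, more than any difference between the means of the 6 groups.

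S100a8 and S100a9 passed 5 on all 28 arrays. S100a8 measured 9.96, 11.46, 10.33 and 12.49 with KO Ang II, against 12.05, 10.33 and 9.29 with KO vehicle. In wild-type cells it ran from 8.68 to 10.29 (median 9.31) with Hyd/HCTZ and stood at 9.69, 9.58, 8.85 and 11.04 with 2-HOBA, against 10.87, 9.78, 11.51 and 9.08 with Ang II alone and 7.37 to 11.42 (median 10.72) with vehicle. The lowest 2 of all 28 S100a8 values came from wild-type vehicle replicates 6 and 7, at 7.37 and 8.45. S100a9 followed the same order of group means, with 10.94 ± 1.10 in KO Ang II, 10.70 ± 1.17 in KO vehicle, 10.33 ± 1.03 in wild-type Ang II, 10.13 ± 1.34 in wild-type vehicle, 9.71 ± 0.74 with 2-HOBA and 9.18 ± 0.52 with Hyd/HCTZ (SD). Neighbouring groups overlapped in both genes.

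The azurophil granule genes were at or near the detection threshold. Elane, the gene of neutrophil elastase, never passed 5 and had a highest value of 4.96, on KO Ang II replicate 4. Prtn3, which encodes proteinase 3, passed 5 on 1 array, the array labelled wild-type vehicle replicate 2, at 5.21, which is the array that stood apart. Mpo, the gene of myeloperoxidase, passed 5 on 5 of 28 arrays and reached 6.29 on KO Ang II replicate 4 and 5.94 on KO vehicle replicate 1. Elane and Prtn3 did not pass the filter and were not tested, which left 8 of the 10 members. Mmp9, which encodes gelatinase B and is also made by macrophages and dendritic cells, passed 5 on 16 arrays and reached 6.57 on wild-type vehicle replicate 5. Its group means lay between 4.84 ± 0.29 with Hyd/HCTZ and 5.49 ± 0.31 with wild-type Ang II (SD).

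**Figure D2:**
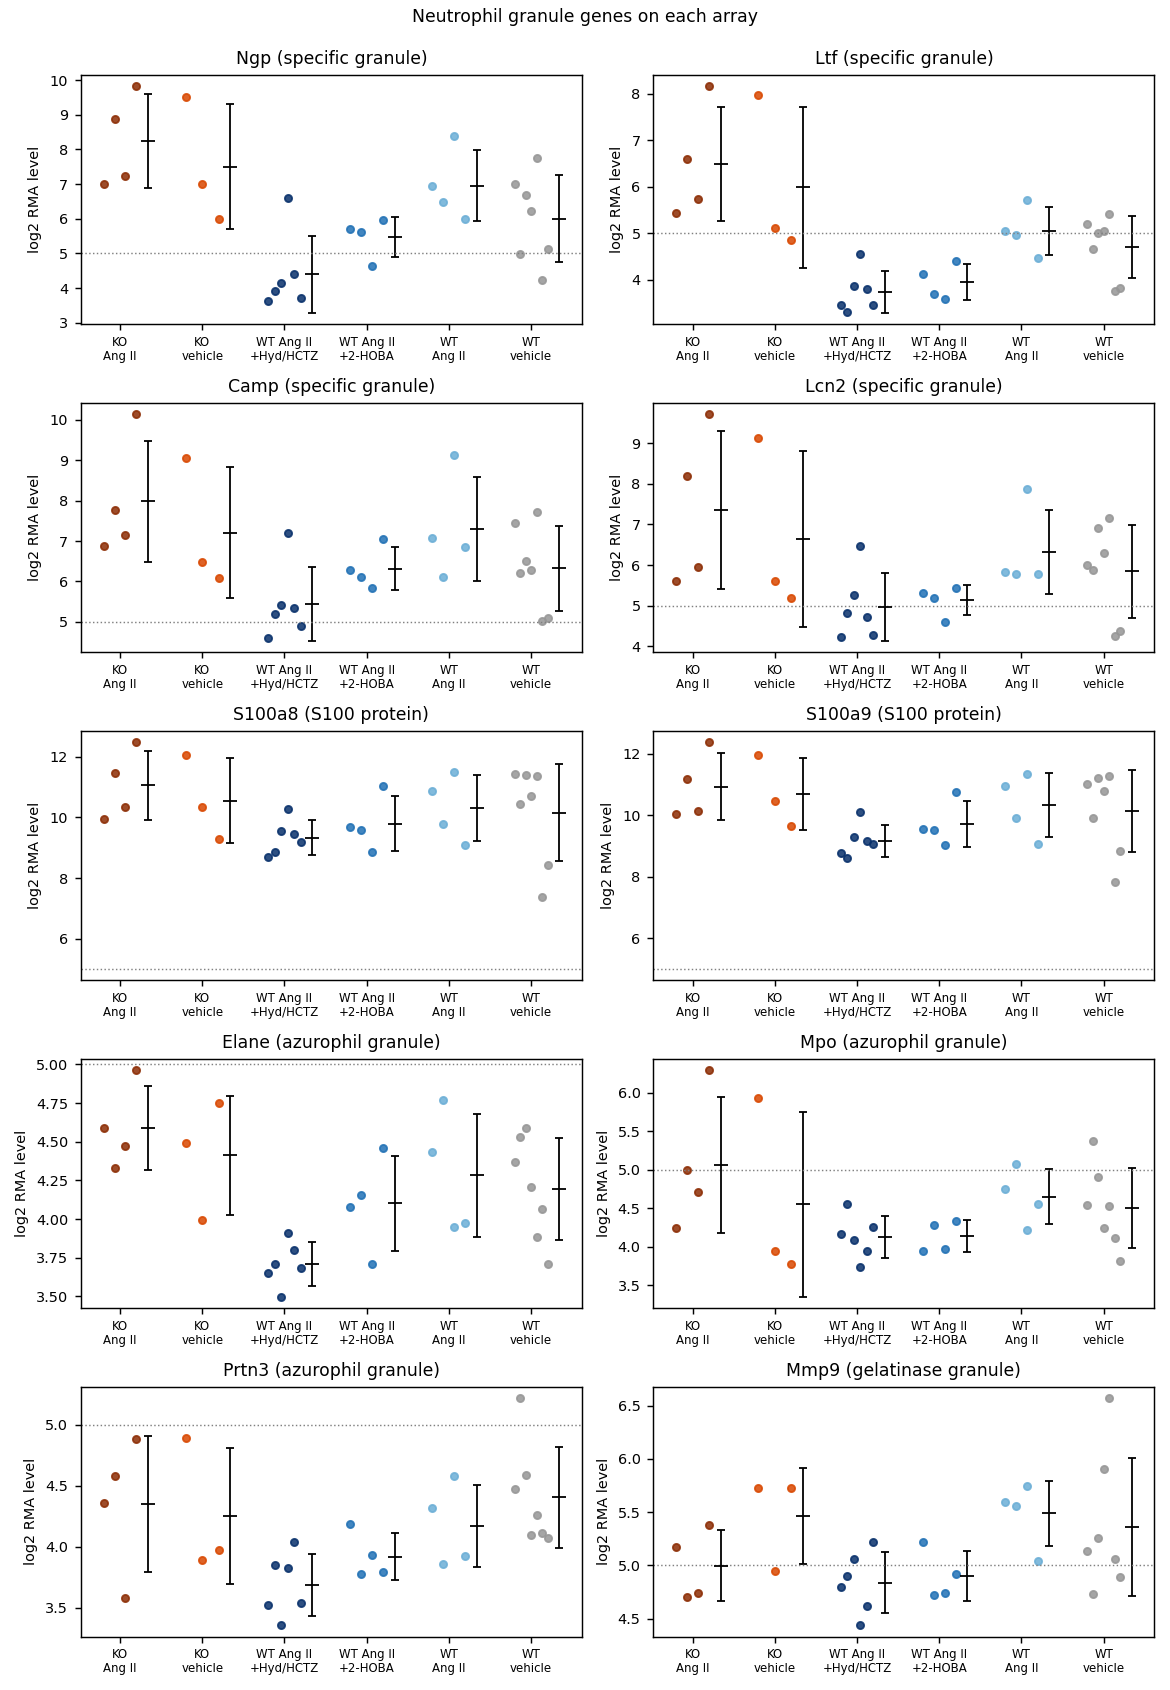
Log2 RMA level (vertical axes, a separate range for each gene) of the 10 granule genes on every array, by group, with group mean and SD as bars and a dotted line at the level of 5 used for detection. KO Ang II replicate 4 reaches 9.84 in Ngp and 12.49 in S100a8, Hyd/HCTZ arrays sit lowest on average in all 10 genes, and Elane stays under the dotted line on every array.

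Arrays of a group differed in the specific granule and S100 genes as whole arrays. KO Ang II replicate 4 was the highest array of its group for 10 of 10 members and KO vehicle replicate 1 for 9. Wild-type Ang II replicate 3 and 2-HOBA replicate 4 led their groups for 8 members each, and Hyd/HCTZ replicate 4 led for 7. Wild-type Ang II replicate 3 was also the lowest of its group for 2 members. So was Hyd/HCTZ replicate 4, for Mpo and Mmp9, while 2-HOBA replicate 4 was the lowest for 0. The pooled within-group SD was 1.20 for Ngp, 0.84 for Ltf, 1.13 for Camp, 1.27 for Lcn2, 1.19 for S100a8 and 1.03 for S100a9, against a median of 0.32 over all tested genes, of which 95% lay under 0.55. These 6 genes all stood above the 99.5th percentile of within-group SD, while Mpo at 0.59 stood at the 96.6th and Mmp9 at 0.43 at the 82.7th.

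**Figure D3:**
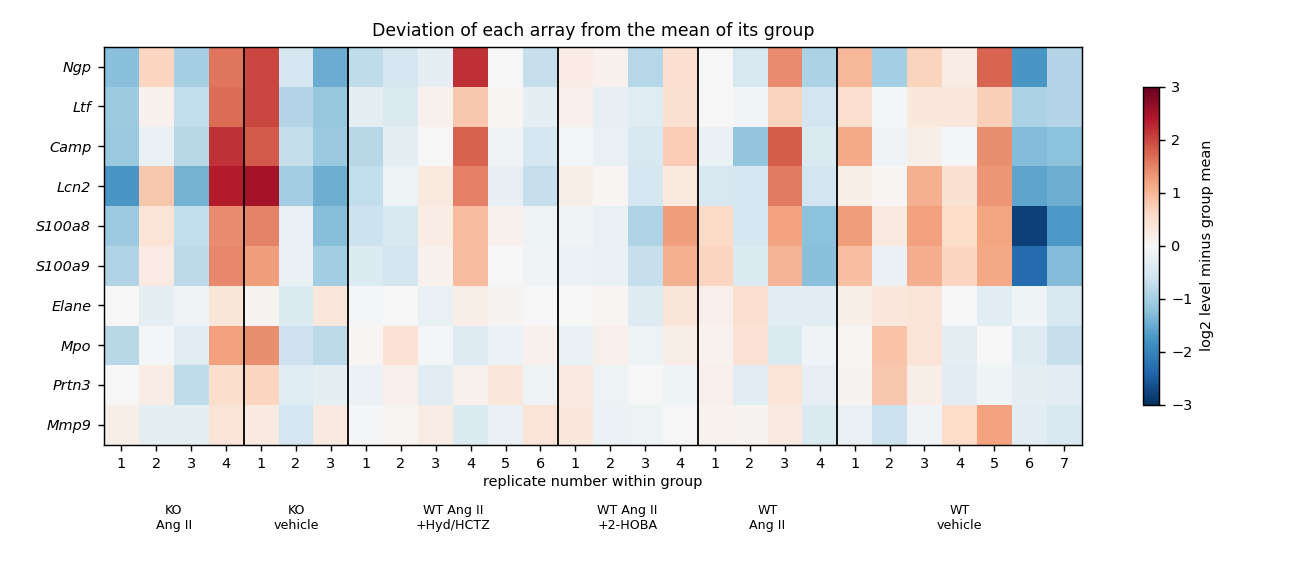
Level of each granule gene on each array minus the mean of its group (colour, log2 scale), with genes as rows and arrays as columns in replicate order within groups. Whole columns change colour together in the top 6 rows, such as KO Ang II replicate 4 and KO vehicle replicate 1 in red and wild-type vehicle replicates 6 and 7 in blue, while Elane and Prtn3 stay pale.

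After each group mean was subtracted, the other 3 specific granule genes and both S100 genes followed Ngp over the 28 arrays. Pearson's r with Ngp was 0.898 for Ltf, 0.924 for Camp, 0.917 for Lcn2, 0.870 for S100a8 and 0.892 for S100a9, and Spearman's rho was 0.929, 0.871, 0.911, 0.880 and 0.912 in the same order. Each of these 5 had a permutation p of 1e-05, the smallest that 100000 shuffles within groups can give, and an adjusted p of 1.8e-05 over the 9 relations computed. Without the 2 arrays farthest from the median of Ngp, r stayed between 0.879 and 0.902. It lay between 0.911 and 0.969 within array set 1 (12 arrays), between 0.942 and 0.968 within set 2 (10 arrays) and between 0.901 and 0.985 within set 3 (6 arrays). The 15 pairs among the 6 genes had r from 0.850 to 0.988, with a median of 0.892, and the neighbours S100a8 and S100a9 were the closest pair.

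Lower r values were measured for the azurophil genes and Mmp9. With Ngp, r was 0.156 for Elane (rho 0.241, permutation p = 0.493), 0.416 for Mpo (rho 0.360, p = 0.118), 0.482 for Prtn3 (rho 0.502, p = 0.0397, adjusted p = 0.0595) and 0.362 for Mmp9 (rho 0.361, p = 0.113). For Elane, all of whose values lay under 5, r was 0.0770, 0.204 and 0.714 within sets 1, 2 and 3. For Mpo r was 0.732, 0.387 and -0.759 within sets 1, 2 and 3, and for Mmp9 0.397, 0.894 and -0.754. Elane and Prtn3, neighbours on chromosome 10, had r = 0.320 with each other. Values close to the detection threshold carry little signal over background, and the difference between these r values and those of the other 5 genes was not tested.

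**Figure D4:**
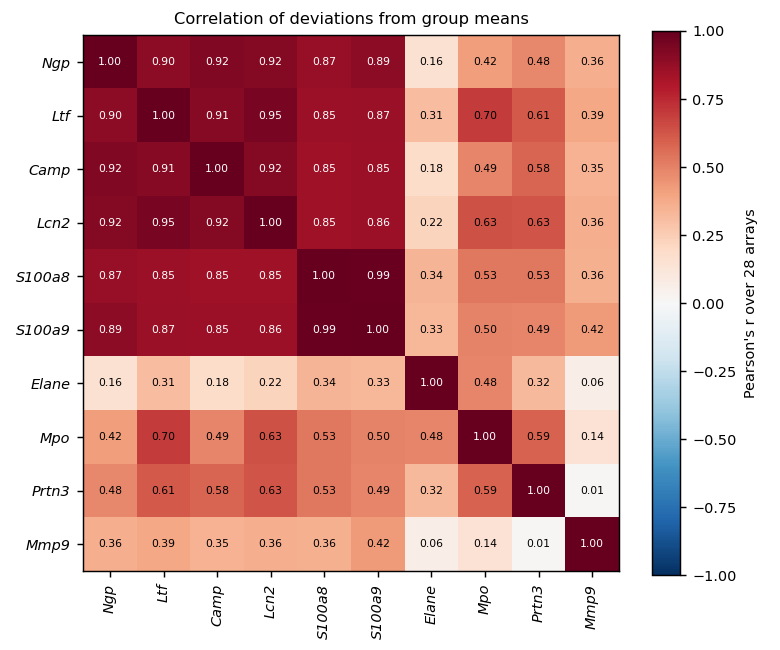
Pearson's r between granule genes over 28 arrays after subtraction of group means (colour and printed value). The 6 specific granule and S100 genes form a block with r of 0.85 to 0.99, and Elane has r of 0.06 to 0.48 with the other 9 genes.

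With Hyd/HCTZ added to Ang II, Ngp, Ltf, Camp and Mmp9 fell against Ang II alone. Ngp averaged 4.40 ± 1.11 with Hyd/HCTZ and 6.95 ± 1.03 with Ang II alone (SD, n = 6 and 4), a difference of -2.55 (limma adjusted p = 0.00260). Camp averaged 5.45 ± 0.91 with Hyd/HCTZ and 7.30 ± 1.29 with Ang II alone, a difference of -1.85 (0.0169). Ltf averaged 3.74 ± 0.45 with Hyd/HCTZ and 5.05 ± 0.51 with Ang II alone, a difference of -1.31 (0.0228). Mmp9 averaged 4.84 ± 0.29 with Hyd/HCTZ and 5.49 ± 0.31 with Ang II alone, a difference of -0.65 (0.0379). Called lower were thus 4 of the 8 tested members, against 11.9% of all 10452 tested genes, and called higher were 0 members, against 40.8%. Lcn2 (-1.35, adjusted p = 0.113), S100a9 (-1.16, 0.0958), S100a8 (-0.97, 0.226) and Mpo (-0.52, 0.204) had differences below 0 that did not pass, so all 8 lay below 0, against 31.8% of all tested genes. The specific granule and S100 genes moved together across arrays. Counts of members, here and in the comparisons below, are therefore not counts of independent genes. Among the called genes, Ltf did not pass after quantile normalization (-1.14, limma adjusted p = 0.0568), nor Mmp9 with array weights (-0.52, 0.0937) or with arrays set to a common median (-0.54, 0.0966). In bulk RNA, fewer cells of a type and less RNA per cell cannot be told apart.

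The median of all tested genes was 0.32 higher with Hyd/HCTZ than with Ang II alone, against -1.23 for the 8 members. The median over all probe sets went the other way, at 4.32 to 4.36 on Hyd/HCTZ arrays and 4.43 to 4.47 on Ang II arrays. Whether the 0.32 shift suits genes near the level of 5 was not tested. Relative to the 0.32 shift 6 of 8 members were called lower, against 25% of all tested genes. Ngp stood at -2.87 (adjusted p = 0.00103), Camp at -2.17 (0.00653), Ltf at -1.62 (0.00626), S100a9 at -1.47 (0.0377), Mmp9 at -0.97 (0.00329) and Mpo at -0.84 (0.0442), while Lcn2 (-1.67, 0.0548) and S100a8 (-1.29, 0.112) did not pass. Without the shift and with 5 in place of Hyd/HCTZ means under it, Ngp was at least 3.86-fold lower, Mmp9 at least 1.40-fold and Ltf at least 1.03-fold, and Camp was 3.61-fold lower. Of the 6 Hyd/HCTZ arrays 1 passed 5 in Ngp, 2 in Mmp9 and 0 in Ltf. Mpo averaged under 5 in both groups, so no fold is given for it.

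In none of the 8 did the 2 groups separate, whereas 10% of all tested genes had every Hyd/HCTZ array below every Ang II array. Hyd/HCTZ replicate 4 overlapped the Ang II arrays in Ngp at 6.59 and in Camp at 7.21, and the other 5 Hyd/HCTZ arrays had Ngp between 3.64 and 4.41, under every Ang II array. Wild-type Ang II replicate 3 was the highest array of its group in 8 members, and without it 1 member, Ngp (-2.07, adjusted p = 0.0184), stayed called against 0, with Camp at -1.24 (0.113), Ltf at -1.08 (0.0821) and Mmp9 at -0.56 (0.103). Mmp9 also missed the threshold without Ang II replicate 1 or 2 or without Hyd/HCTZ replicate 1, 4 or 5, with limma adjusted p between 0.0561 and 0.0882. Relative to the shift, Ngp, Ltf, Camp and Mmp9 stayed called whichever array was left out, with adjusted p of at most 0.0480. S100a9 and Mpo each lost their call in 8 of 10 such fits, where limma's adjusted p reached 0.133 for S100a9 and 0.156 for Mpo, and Lcn2 gained one without Hyd/HCTZ replicate 4 (adjusted p = 0.0259). Hyd/HCTZ and array set 3 cannot be told apart.

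**Figure D5:**
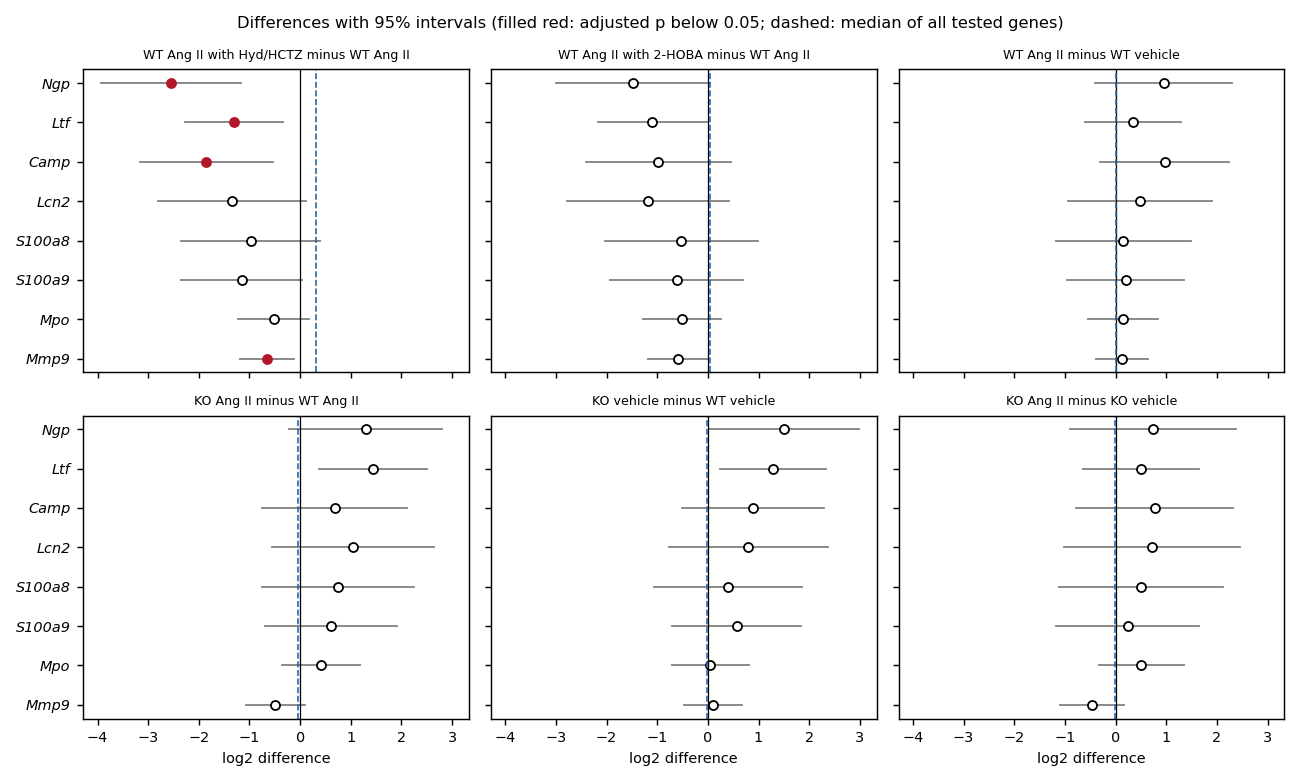
Difference in log2 level (horizontal axes) of the 8 tested members in 6 comparisons, with 95% intervals from limma; filled red points have an adjusted p below 0.05 against 0 and the dashed line marks the median of all tested genes. In the first panel 4 red points lie left of 0, with Ngp at -2.55; all 8 points lie left of 0 with 2-HOBA and none of the other panels has a red point.

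With 2-HOBA added to Ang II all 8 tested members had differences below 0, against 41.4% of all tested genes, and none was called. Their median was -0.80, against 0.05 for all tested genes. Ngp differed by -1.47, Lcn2 by -1.18, Ltf by -1.09 and Camp by -0.98, each with a limma adjusted p of 0.977, and 0% of all 10452 tested genes were called. At an unadjusted p under 0.05 stood 379 genes, or 3.63%, among them 2 members, Ltf and Mmp9 (-0.59). In Ngp, Ltf and Lcn2, 3 of the 8, every 2-HOBA array lay below every Ang II array, against 1.06% of all tested genes: Ngp reached 5.96 with 2-HOBA and 6.00 was the lowest value with Ang II alone. Without wild-type Ang II replicate 3 the difference in Ngp was -0.995 and in Camp -0.37. Against the 2 Ang II arrays of the same array set, Ngp differed by -1.71, Lcn2 by -1.69, Camp by -1.67, Ltf by -1.14 and S100a8 by -0.51. Those arrays were replicates 3 and 4, with Ngp at 8.38 and 6.00, so replicate 3 weighs more in these values. In that fit 0 of all tested genes were called.

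Wild-type Ang II was compared with wild-type vehicle to ask what the hormone did alone, and none of the 8 members was called (0% of all tested genes). An unadjusted p under 0.05 in limma was found for 266 genes, or 2.54%, and for 0 members. All 8 differences were above 0, whereas 50.3% of all tested genes lay below it, with a median of 0.27 against 0.00 for all tested genes. Camp (0.97) and Ngp (0.95) had the greatest differences, and S100a8 (0.15), Mpo (0.15) and Mmp9 (0.12) the smallest. The array sets went different ways, as the member median was -0.07 within set 1 and 0.70 within set 2, with Camp at -0.12 and 1.97 and Lcn2 at -0.45 and 1.30 (set 1 and set 2). Set 1 included the array labelled wild-type vehicle replicate 2. Over both sets, leaving out that array gave Ngp 0.78 and Camp 0.95. Set 2 held wild-type Ang II replicate 3, the highest of its group in 8 members, and vehicle replicates 6 and 7, the lowest 2 arrays in S100a8. It also held vehicle replicate 5, the highest of its group for 6 members. The Ang II arrays here also served as the baseline of the 2-HOBA and Hyd/HCTZ comparisons, so the 3 sets of differences share samples.

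Between genotypes, Ngp and Ltf had the greatest differences in the vehicle groups, and neither was called. Ngp averaged 7.50 ± 1.80 with KO vehicle and 6.00 ± 1.25 with wild-type vehicle (SD, n = 3 and 7), a difference of 1.50 (limma adjusted p = 0.784), and Ltf averaged 5.99 ± 1.73 with KO vehicle and 4.70 ± 0.66 with wild-type vehicle, a difference of 1.28 (0.708). None of the 8 members was called, against 1 of all tested genes, or 0.00957%, and 2 members (Ngp and Ltf) were among the 657 genes, or 6.29%, with an unadjusted p under 0.05. All 8 differences were above 0, whereas 53.6% of all tested genes lay below it. The median was 0.69, against -0.02 for all tested genes. KO vehicle replicate 1 set these values: without it Ngp differed by 0.50, Ltf by 0.29, Camp by -0.04 and Lcn2 by -0.44. When the array labelled wild-type vehicle replicate 2 was left out, Ngp differed by 1.33 (limma adjusted p = 0.357) and Ltf by 1.28 (0.214). Array weights, which let deviant arrays count for less, brought Ngp (1.96, limma adjusted p = 0.0410) and Ltf (1.47, 0.0294) past the threshold. Within array set 1, 3 arrays against 3, the differences were 1.29 for Ngp, 1.03 for Ltf, 0.49 for Camp, 0.38 for Lcn2 and -0.52 for S100a8.

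With Ang II in both genotypes, 7 of 8 members had differences above 0 and none was called, against 0.0478% of all tested genes. Of all tested genes 55.6% lay below 0 and 714, or 6.83%, had an unadjusted p under 0.05 in limma, with 1 member, Ltf, among them. Ltf averaged 6.49 ± 1.23 with KO Ang II and 5.05 ± 0.51 with wild-type Ang II (SD, n = 4 each), a difference of 1.44 (limma adjusted p = 0.508). Ngp differed by 1.29, Lcn2 by 1.05, S100a8 by 0.75, Camp by 0.68 and Mmp9 by -0.49. Without KO Ang II replicate 4 Ltf differed by 0.88, Ngp by 0.76, Lcn2 by 0.26 and Camp by -0.04. Within set 1, against 2 wild-type arrays, Lcn2 differed by 1.55, Ngp by 1.53, Ltf by 1.49 and Camp by 1.38.

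Within the knockout, Ang II against vehicle gave differences of 0.77 in Camp, 0.74 in Ngp, 0.72 in Lcn2, 0.50 in Ltf and -0.47 in Mmp9, with a median of 0.51 over the 8 members and none called (0% of all tested genes). At an unadjusted p under 0.05 in limma stood 296 genes, or 2.83%, and no member. Differences were below 0 for 1 member, against 52.6% of all tested genes. These means rest on single arrays, since without KO vehicle replicate 1 the difference in Ngp was 1.74 and without KO vehicle replicate 3 it was -0.01. The change with Ang II was also compared between genotypes, KO minus wild type. That difference of differences had a median of 0.10 over the members, 0% of all tested genes were called and 257, or 2.46%, had an unadjusted p under 0.05 in limma, again with no member. It was below 0 for 3 of the 8 members, against 51.9% of all tested genes. It was -0.21 for Ngp (95% interval -2.34 to 1.91) and 0.36 for S100a8 (-1.75 to 2.46), so the width of the intervals exceeded every difference measured in these genes.

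Listed genes of the neutrophil program were called both higher and lower with Hyd/HCTZ, as were many of all tested genes. Relative to the shift, 4 of 12 tested genes of a list of specific and gelatinase granule genes rose and 4 fell, with a median of -0.04, against 23.7% of all tested genes called higher and 25% called lower. The 4 with the smallest p all rose: Adam8, a membrane metalloprotease, by 1.09, Slpi, an inhibitor of neutrophil elastase, by 1.14, Anxa1, an anti-inflammatory phospholipid-binding protein, by 1.46 and Pglyrp1, a peptidoglycan-binding protein, by 1.29. The 4 that fell, named after their values were seen, were Chil3, a chitinase-like protein (-1.94, adjusted p = 0.0188), Serpinb1a, an inhibitor of granule serine proteases (-1.34, 0.000855), Cd177, a neutrophil surface protein (-0.94, 0.00142), and Cebpe, the gene of C/EBPε (-0.89, 0.00125).

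Of 12 tested genes of neutrophil surface and cytosol, 2 rose (Asprv1 by 0.83 and Cd300ld by 1.24) and 4 fell, among them the glycoprotein gene Lrg1 (-1.75) and the transcription factor gene Gfi1 (-0.84), with Wfdc21 at -1.15 and Retnlg at -1.43. Of 7 tested azurophil and promyelocyte genes 3 rose, Igsf6 by 1.33, Cst7 by 0.71 and Cd63 by 1.09, and none fell. Relative to the shift, 23.7% of all tested genes were called higher and 25% lower, so the surface and cytosol counts lay near those shares. Ctsg, Ms4a3, Fcnb, Prom1 and Bpi of that list never passed 5, nor did Olfm4, Ly6g, Padi4, Stfa2 and Stfa3 of the other 2. No gene of these 3 lists was called in another comparison. With 2-HOBA 11 of 12 specific and gelatinase granule genes and 11 of 12 surface and cytosol genes had differences below 0. Their medians were -0.22 and -0.27. Of all tested genes 41.4% lay below 0, with a median of 0.05. Below 0 were also 8 of 8 listed erythroid, 11 of 12 red pulp macrophage and 7 of 9 monocyte genes. So were 2 of 3 eosinophil, basophil and mast cell genes, 5 of 14 dendritic cell genes and 3 of 7 azurophil and promyelocyte genes. Lower too were 1 of 5 myeloid progenitor, 1 of 9 T and NK cell and 0 of 9 B cell genes. Lyz2 and Slpi, and Retnlg and G0s2, were the members of the first 2 lists with the highest mean levels.

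Markers of other cells moved in the same Hyd/HCTZ comparison. There 23.7% of all tested genes were called higher and 25% lower relative to the shift. Relative to the shift 9 of 9 B cell, 7 of 8 erythroid and 4 of 9 T and NK cell genes fell, while 10 of 14 dendritic cell, 7 of 9 monocyte, 7 of 12 red pulp macrophage and 3 of 5 myeloid progenitor genes rose, and 2 T and NK cell genes rose and 1 monocyte gene fell. Of 3 tested eosinophil, basophil and mast cell genes 1 rose and 1 fell. The mean level of the 16 neutrophil surface and cytosol genes on the array lay between 4.84 and 5.42 with Hyd/HCTZ, 4.70 and 4.99 with 2-HOBA, 4.90 and 5.40 with Ang II alone and 4.62 and 6.14 with vehicle, and that of 9 erythroid genes between 4.23 and 4.69, 4.48 and 5.09, 5.04 and 6.37, and 4.82 and 5.40 in the same order of groups. On KO Ang II replicate 4, the highest array of its group for all 10 members, the erythroid genes averaged 7.37 (at most 5.34 on the other 3 arrays of the group), the 12 red pulp macrophage genes 8.14 (at most 7.27) and the B cell genes 6.997 (at least 7.89). KO vehicle replicate 1 led its group in the same erythroid and macrophage averages, at 5.44 (at most 4.78 on the other 2) and 8.02 (at most 7.10). Monocyte genes averaged 6.94 on KO Ang II replicate 4 (at most 6.28 on the others) and 6.95 on KO vehicle replicate 1 (at most 6.25). On Hyd/HCTZ replicate 4 and 2-HOBA replicate 4 monocyte genes were the lowest of the group, at 6.89 and 5.59. Neutrophil surface and cytosol genes averaged 5.68 on KO Ang II replicate 4 (at most 5.12 on the others) and 5.52 on KO vehicle replicate 1 (at most 4.94). On Hyd/HCTZ replicate 4 they averaged 4.84 and the macrophage genes 7.55, each the lowest of the group. On wild-type Ang II replicate 3 the neutrophil surface and cytosol genes averaged 5.27 (5.40 on replicate 1). There B cell genes averaged 8.82, erythroid genes 6.37 and T and NK cell genes 6.89, each the highest of the group. Its monocyte genes averaged 5.97, the lowest of the group. The neutrophil surface and cytosol genes averaged 4.90 on 2-HOBA replicate 4 (4.99 on replicate 3). Wild-type vehicle replicate 5, highest for 6 members, led its group in them at 6.14. That array also led in B cell genes at 8.69, T and NK cell genes at 7.14 and monocyte genes at 7.03. It did not lead in erythroid or red pulp macrophage genes. The part of these cells in the levels of the granule genes was not tested.

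The genes whose array-to-array pattern was most like the mean of Ngp, Ltf, Camp and Lcn2, after subtraction of group means over 28 arrays, were Wfdc21 (r = 0.863), Chil3 (0.838), Retnlg (0.834), Slfn4 (0.796) and Wfdc17 (0.786). Those most like the mean of S100a8 and S100a9 were Retnlg (0.830), Slfn4 (0.804), Wfdc17 (0.802), Il1f9 (0.783) and Wfdc21 (0.778), so 4 genes stood in both groups. The azurophil mean of Elane, Mpo and Prtn3 had none of these among its nearest 5, which were Zdhhc23 (0.834), Incenp (0.769), Mapk13 (0.765), Ccdc85b (0.760) and Gpihbp1 (0.749). Spearman's rho of these 5 with that mean ran from 0.61 to 0.69. Elane, Mpo and Prtn3 mostly lay under 5, so their mean carries little signal over background. Of the listed genes, r with the specific granule mean was above 0.5 for 4 of 12 specific and gelatinase granule genes (Chil3, Cd177, Hp and Anxa1), 4 of 12 surface and cytosol genes (Wfdc21, Retnlg, Cxcr2 and Lrg1) and 0 of 7 azurophil and promyelocyte genes. These r values are descriptions over arrays that share their processing, with no test.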

How the data were processed

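Expression was measured on 28 one-colour Affymetrix arrays. The deposited values are log2 expression levels, and per the submitters' processing notes RMA and Partek 6.6 were used; the order of these steps was not given in the sources used here. Of 35556 probe sets, 21789 carried 1 gene symbol in GEO's platform annotation, 1621 several and 12146 none. For the 999 genes with several single-symbol probe sets, the probe set of highest mean stood for the gene. A level above 5 on 3 or more arrays was required for testing, which 10452 of 19938 genes reached.

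One linear model with a mean for each of the 6 groups was fitted to all arrays (limma 3.58.1, R 4.3.3, lmFit and eBayes), p-values were adjusted by Benjamini-Hochberg over every tested gene of a comparison, and 0.05 was the threshold for a call. All tests were two-sided. Where a called gene averaged under 5 in 1 group, "at least" puts 5 in place of that mean. RMA is meant to bring arrays to a common distribution, so a difference is relative to the other probe sets, and it compresses differences of dim genes. The deposited arrays still differed in spread. Interquartile ranges ran from 3.09 to 3.44 on Hyd/HCTZ arrays and from 2.48 to 2.82 on wild-type Ang II arrays. The part of this spread in the differences of dim genes was not tested. Correlations used levels minus group means with shuffles within groups (scipy 1.17.1).

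The 10 genes, the gene lists, the array sets (3 ranges of principal component 1 of 998 control probe sets, 30.16% of their variance) and the motifs were chosen with earlier results of these data known. All 10 members are named, with the called genes of each list that had the smallest p (up to 4, or the 2 with the highest mean where none was called) and the 5 genes most alike in pattern. Alternatives were other filters, array weights, fewer arrays, 2 normalizations, other eBayes options, all probe sets of a gene, the median difference as zero, array set or replicate number as a block, and leaving out each array; leave-one-out counts relative to the median difference were added after seeing the data. Replicate numbers did not pair arrays, as deviations of same-numbered arrays correlated between -0.35 and 0.37. No 2 arrays held the same values, with correlations of at most 0.990. The number of arrays limits the precision, and no detection calls were used here. Labels call the arrays biological replicates and do not say whether cells were pooled.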

Additional observations from a re-analysis of the deposited data

Results flagged for a closer look

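In 3 of 50 sets of arrays tested (each member in each group of 4 to 7 arrays), 1 array lay far from the others by Dixon's criterion, where chance gives about 1 in 20. Ngp was 6.59 on Hyd/HCTZ replicate 4, with the next array of that group at 4.41. Camp was 7.21 on the same array, with the next at 5.43. Lcn2 was 7.87 on wild-type Ang II replicate 3, with the next at 5.84.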

How the results depend on the processing

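The count of 4 members called lower with Hyd/HCTZ became 2 with a filter at 7, which left fewer members tested, 8 with the compared arrays alone and 6 relative to the median difference, and ran from 1 to 5 when each array was left out. Relative to the median difference the count ran from 4 to 6. Array weights called 2 members, Ngp (1.96, limma adjusted p = 0.0410) and Ltf (1.47, 0.0294), higher in KO vehicle than in wild-type vehicle; the cause was not tested. The replicate number as a block changed no call. Signs of uncalled differences turned in 13 cases with other settings. With the replicate block, KO vehicle minus wild-type vehicle gave S100a8 -0.026 and Mpo -0.12, and wild-type Ang II minus vehicle gave S100a8 -0.42, S100a9 -0.23 and Mpo -0.045. With array weights, Mmp9 was -0.038 between vehicle groups, and the genotype by Ang II difference was -0.21 for Ltf, -0.58 for Lcn2, -0.80 for S100a8 and -0.82 for S100a9. Quantile normalization gave Mpo -0.049, and array set as a block S100a8 -0.19 and Mpo -0.34, between vehicle groups. Leaving out 1 array also turned the sign of uncalled differences. In wild-type Ang II minus vehicle it ran from -0.32 to 0.56 for S100a8, -0.19 to 0.62 for S100a9 and -0.043 to 0.69 for Lcn2. In KO Ang II minus KO vehicle it ran from -0.013 to 1.74 for Ngp, -0.061 to 1.50 for Ltf, -0.065 to 1.97 for Lcn2, -0.13 to 1.25 for S100a8 and -0.28 to 0.87 for S100a9. In KO minus wild-type vehicle it ran from -0.038 to 1.45 for Camp, -0.44 to 1.53 for Lcn2, -0.35 to 1.03 for S100a8, -0.064 to 1.09 for S100a9, -0.65 to 0.44 for Mpo and -0.030 to 0.36 for Mmp9. In KO minus wild-type Ang II it ran from -0.037 to 1.29 for Camp and -0.0017 to 0.68 for Mpo. In the genotype by Ang II difference it ran from -0.96 to 0.79 for Ngp, -0.92 to 0.72 for Camp, -0.41 to 1.15 for Ltf, -0.54 to 1.49 for Lcn2, -0.48 to 0.67 for S100a9, -0.28 to 1.10 for S100a8 and -0.050 to 1.05 for Mpo. Detection limited Ltf, Mpo, Elane and Prtn3, whose levels mostly lay under 5.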
